A study of Mus musculus with 159 samples.

Results

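The genes described here encode the subunits of oxidative phosphorylation, the respiratory chain and ATP synthase of the inner mitochondrial membrane. They were taken by name: every probe of the deposited expression table whose gene symbol begins with Nduf, Sdh, Uqcr, Cox4, Cox5, Cox6, Cox7, Cox8 or Atp5. The rule found 97 probes for 81 symbols among 13983 probes, and it used no measured value. Complex I had 42 probes (32 symbols), complex II 4 (3), complex III 7 (6), complex IV 16 (14, with Ndufa4 counted here) and ATP synthase 16 (15). The rule also took 6 probes for complex I assembly factors, 4 for complex II assembly factors, the supercomplex factor Cox7a2l and a pseudogene, Ndufs5-ps. Subunits encoded by mitochondrial DNA have other names, and nuclear genes with no probe in the table, such as Sdha and Uqcrfs1, were not analysed here.

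The arrays came from prefrontal cortex (PFC) and liver of adult female C57BL/6J mice, with 1 animal per array. Mice drank 20% ethanol in 1 of 3 paradigms, each against its own controls given only water: with water continuously alongside (Chronic), on alternate days (CI, chronic intermittent), or for a short period of each dark phase (DID, drinking in the dark, under a reversed light cycle shared by its controls). Tissue was taken about a day after the last access to ethanol. In the fourth study, mice received 2 intraperitoneal injections of lipopolysaccharide (LPS, a bacterial endotoxin that activates innate immunity) at 1 mg/kg, a week apart, against saline, and tissue was taken a week after the last injection. The sample labels give 2.5 months as the age of every mouse. The paper instead describes the Chronic and CI mice as older at the start than the DID and LPS mice. The labels also write water for the LPS controls, whereas the study's design states saline. Each of the 16 groups had 10 arrays, except Chronic PFC controls, which had 9. No gene was deleted and no transgene was present in any group.

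Oxidative phosphorylation passes electrons from NADH, through complex I, and from succinate, through complex II, to ubiquinone. Complexes III and IV carry them on to oxygen, and the proton gradient built on the way drives ATP synthase. Most subunits are nuclear genes expressed in every cell, while a few have tissue forms, such as Cox6a2, Cox7a1 and Cox8b of heart and skeletal muscle. Neurons draw most of their ATP from this pathway, and hepatocytes use it in fat oxidation and in clearing the NADH that ethanol metabolism produces.

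All values are log2 signals that the authors had normalized within each study and tissue, so every comparison was fitted within 1 of these 8 sets. A change is the treated mean less the control mean on the log2 scale, DE means an unadjusted p under 0.05 in limma, and "rose" and "fell" are kept for an adjusted p under 0.05 over all probes of the set. Blank values, which the authors removed as outliers, made up 0.49% to 0.62% of each set, and a fit used the remaining arrays. The tissue labels fitted their markers: the myelin gene Mbp had values in PFC only, Cyp2e1 and Alb in liver only, and Ttr averaged 15.0 to 15.4 in liver sets, against 8.76 to 9.60 in PFC sets. Some PFC arrays stood apart in these genes and are described with their comparisons: treated replicates 2 and 6 of Chronic and control replicates 5 and 6 of CI. RNA came from whole tissue, where fewer cells of a type and less RNA per cell cannot be told apart.

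Promoters of 4 members are shown because their genes recur in the results and because the members moved together on some arrays. Sequences are from RefSeq (GRCm38.p6), and each holds the 250 bases before the annotated start on the gene's strand: Ndufc1, the only member past the adjusted threshold (minus strand, chr3:51408956-51409205), Cox6a1 (minus strand, chr5:115348959-115349208), Uqcr11 (minus strand, chr10:80406822-80407071) and Ndufa12 (plus strand, chr10:94198785-94199034). Capitals mark matches, on either strand, to the core letters of motifs of the factors NRF1 (CGCANGCG) and GABPA (CCGGAAG), which control many respiratory genes.
Ndufc1: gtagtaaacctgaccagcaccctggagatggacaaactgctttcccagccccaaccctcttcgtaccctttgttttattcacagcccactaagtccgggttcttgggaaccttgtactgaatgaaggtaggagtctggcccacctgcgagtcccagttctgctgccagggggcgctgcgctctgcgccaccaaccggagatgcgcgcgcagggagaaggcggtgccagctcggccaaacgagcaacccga
Cox6a1: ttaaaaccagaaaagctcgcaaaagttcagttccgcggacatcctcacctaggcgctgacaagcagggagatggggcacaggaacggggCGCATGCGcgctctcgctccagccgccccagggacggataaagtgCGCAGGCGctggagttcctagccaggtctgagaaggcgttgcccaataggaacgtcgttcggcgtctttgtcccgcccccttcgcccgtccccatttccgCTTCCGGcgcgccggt
Uqcr11: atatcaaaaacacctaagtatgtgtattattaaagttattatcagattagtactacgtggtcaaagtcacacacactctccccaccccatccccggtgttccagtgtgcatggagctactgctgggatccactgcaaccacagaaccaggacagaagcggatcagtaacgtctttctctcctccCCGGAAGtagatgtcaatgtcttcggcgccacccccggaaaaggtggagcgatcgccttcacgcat
Ndufa12: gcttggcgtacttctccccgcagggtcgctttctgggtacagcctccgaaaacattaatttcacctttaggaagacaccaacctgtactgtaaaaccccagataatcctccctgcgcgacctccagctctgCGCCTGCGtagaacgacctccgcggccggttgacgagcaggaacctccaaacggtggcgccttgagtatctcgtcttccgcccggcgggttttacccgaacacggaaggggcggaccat
The Cox6a1 promoter held 2 NRF1 matches, which began 161 and 116 bases before the start, and 1 GABPA match 16 bases before it. Ndufa12 had an NRF1 match at 119 bases before the start and Uqcr11 a GABPA match at 66, with an NRF1 match at 5 that crosses the start and is not marked. No match to either motif lay in these 250 bases of Ndufc1.

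RefSeq promoters of 300 bases (250 before and 50 after the start) were found for 70 of the 81 symbols. A gene was counted for a motif if any of its promoters held the letters. The NRF1 letters occurred for 25 of the 70 (35.7%), against 18.6% of 7893 genes of the array table with a promoter. Among all 27025 genes with a promoter the share was 9.22%. GABPA letters occurred for 27.1% of member genes, against 18.6% and 9.93%. The letters AAGATGGC of YY1 occurred in 14.3%, against 5.09% and 3.19%, and AAGGTCA of ESRRA in 8.57%, against 4.41% and 5.38%. All 4 motifs were searched on both strands, and 46 of the 70 genes had at least 1 of them in a promoter. In the first promoter of each gene, no matches of different motifs overlapped. A match is a description of the letters and not a measured binding site.

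Members were among the more abundant transcripts of both tissues. Of 92 to 96 members held in a set, 67 to 72 lay in the upper quartile of its probe levels, and their median level was 11.7 to 12.1 in PFC and 11.6 to 12.1 in liver, against medians over all probes of 8.87 to 9.23 and 8.63 to 9.16. Values in all 8 sets were held for 89 of the 97 probes. The muscle form Cox6a2 was held in the 4 PFC sets (control means 9.42 to 10.1) and in no liver set, and Cox6b2, the testis form, only in Chronic PFC (8.30). Ndufab1, the acyl carrier subunit of complex I, was held in the 4 liver sets and in no PFC set. Cox7a1, the other muscle form, was held in both tissues near the low end of the scale, at 8.29 to 8.70 in PFC controls and 8.08 to 8.62 in liver controls.

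Set against the same probe in liver controls of the same study, members were neither uniformly higher nor lower in PFC controls. The median over the 89 probes of the mean difference was 0.08, with 29 probes higher in PFC in all 4 studies and 18 lower in all 4. The tissues were normalized apart, so these differences are a description. The share of all probes with the tissues fully apart is not given here, so the counts that follow have no background. PFC controls all lay above liver controls in every study for 6 probes: Ndufaf5, an assembly factor of complex I (differences of 1.48 to 1.62), Atp5o of the ATP synthase stalk (0.82 to 1.14), Cox8a (0.65 to 1.13), Cox7a2l (0.48 to 1.05), Ndufa12 (0.51 to 0.99) and Ndufaf7 (0.49 to 0.67). Liver controls all lay above PFC controls in every study for 2 probes, Ndufa6 (differences of -0.92 to -0.61) and Uqcr11 (-0.57 to -0.42).

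The single probe of each membrane anchor of complex II, Sdhc and Sdhd, was also lower in PFC controls. Their differences were -1.29 to -0.57 for Sdhc and -1.21 to -0.43 for Sdhd, and the tissues did not overlap in 3 of 4 studies for either. Ndufaf5 (probe ILMN_2747677) shows the size of the largest contrast: in the LPS study its controls ran from 10.18 to 10.38 in PFC and from 8.48 to 8.88 in liver.

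**Figure D1:**
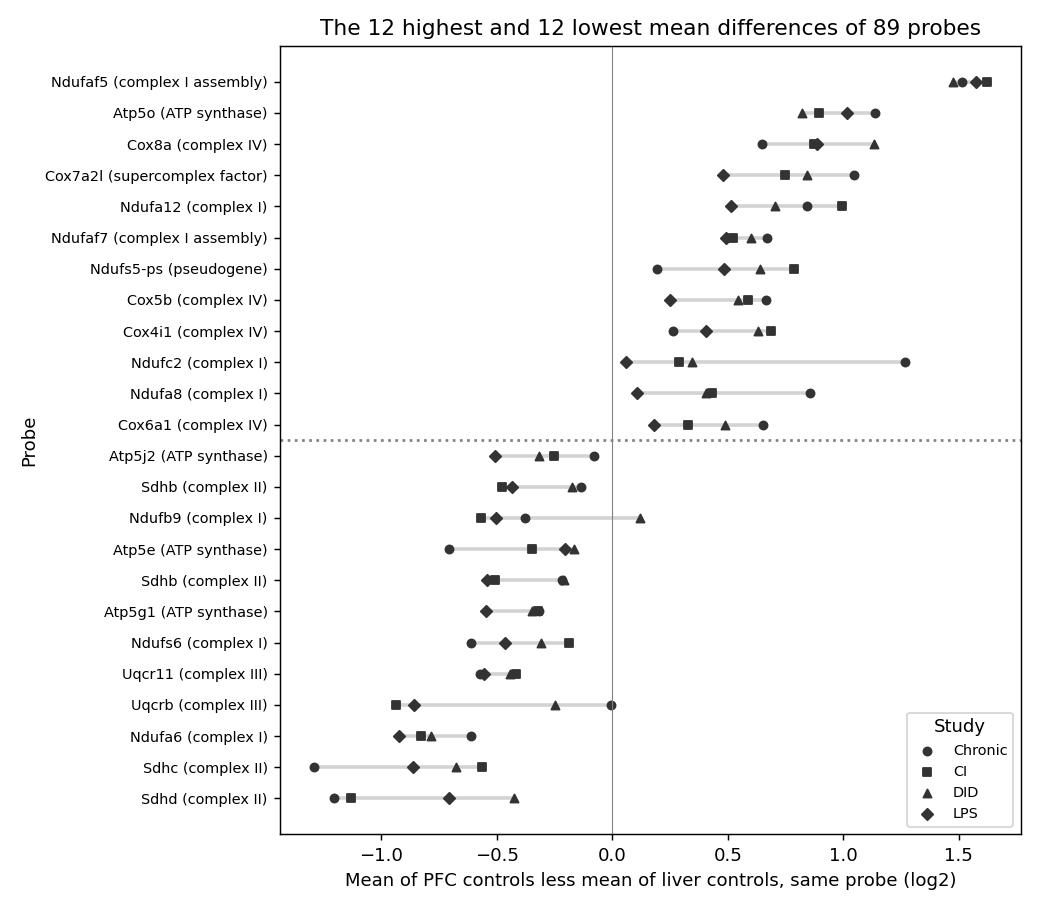
Mean log2 signal of PFC controls less that of liver controls for the same probe (x axis), with 1 marker per study and a grey bar over their range, for the probes with the 12 highest and 12 lowest mean differences. The Ndufaf5 probe stands highest at 1.48 to 1.62, while Sdhc and Sdhd reach the lowest values.

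Between treated and control mice, most members differed little, and 1 passed the adjusted threshold, Ndufc1 in PFC after LPS. The direction shared by the members was lower in Chronic PFC, where it rested on 2 arrays, and higher in LPS PFC. In the other 6 sets, with all arrays, the median change of the members lay between -0.01 and 0.02. The highest was in Chronic liver, where 62 of 94 members were higher. The CI PFC median also depended on 2 arrays: without control replicates 5 and 6, 82 of 94 members were higher, with a median of 0.05.

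**Figure D2:**
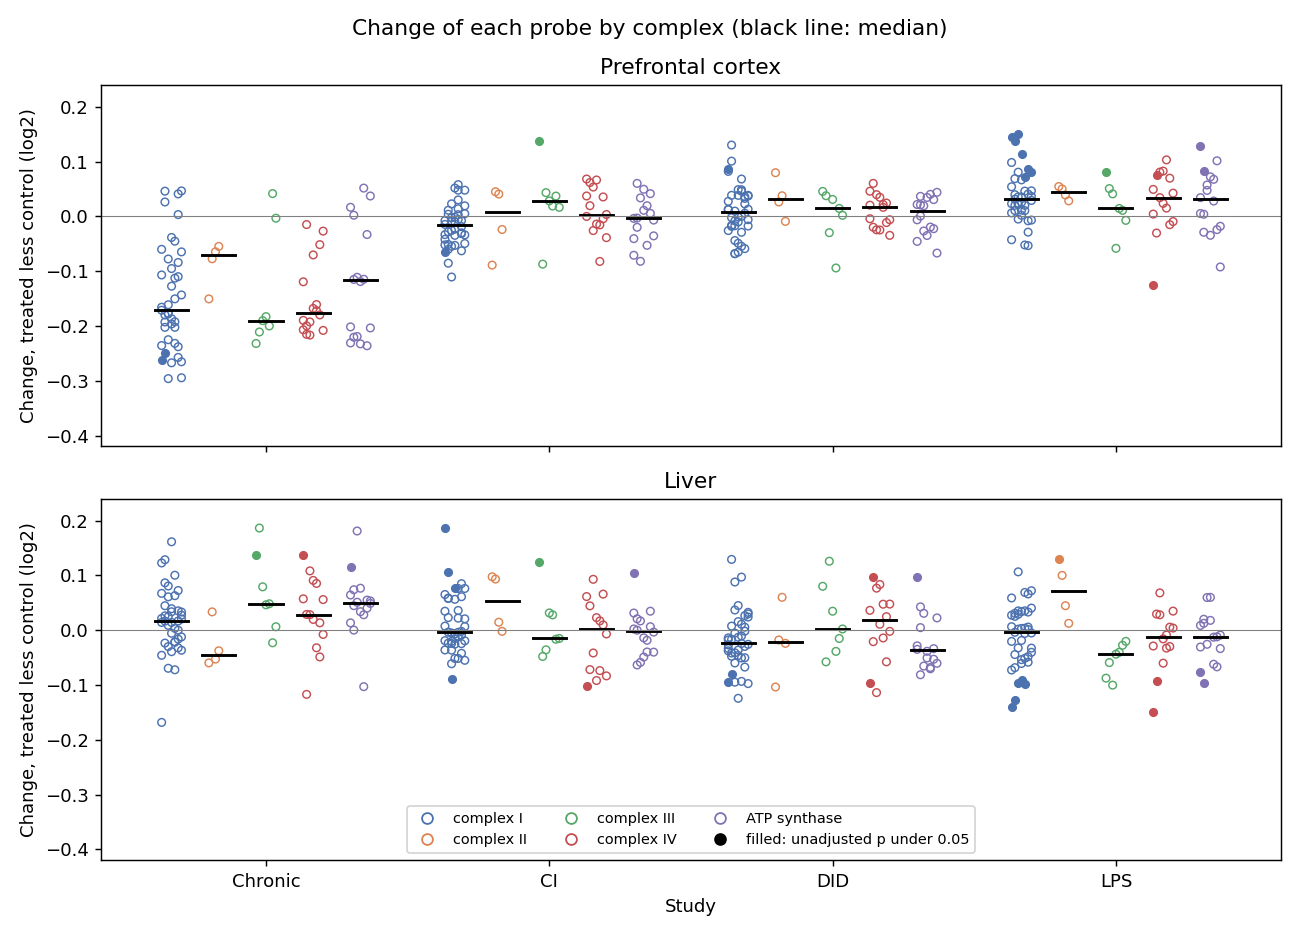
Change of each member probe (y axis, log2, treated less control) by study and by complex, in PFC (top) and liver (bottom). Filled points are DE (unadjusted p under 0.05) and black lines are medians; in Chronic PFC all 5 medians lie below 0, and in LPS PFC all 5 lie above it.

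After LPS, 70 of 93 members were higher in PFC than after saline (75.3%, against 48.7% of all probes), with a median change of 0.03 (all probes, -0.001). DE calls numbered 12 higher and 1 lower, against backgrounds of 4.61% and 4.97% of 11508 probes. The count depended on the fit. It was 7 with a robust variance prior (7.53%, against 9.2% of all probes) and 7 without probes holding blanks (8.97%, against 8.53%). It was 10 without the dimmest probes (11%, against 10.4%) and 14 with array weights (15.1%, against 10.6%). Replicate number as a block, the first principal component as a covariate and median centring each gave 13 (14%, against 9.7%, 10.3% and 9.58%). In the plain fit 1 member passed the adjusted threshold, against 0.113% of all probes. The mean over members was 0.030 ± 0.023 on LPS arrays and 0.000 ± 0.027 on saline arrays (SD, n = 10 each), as differences from the saline mean, and the ranges overlapped, at -0.01 to 0.06 on LPS arrays and -0.05 to 0.05 on saline arrays.

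Ndufc1 encodes a small accessory subunit of the membrane arm of complex I. Its probe ILMN_1229975 had a lowest, median and highest signal of 12.64, 12.70 and 12.80 on 9 LPS arrays, against 12.51, 12.58 and 12.62 on 9 saline arrays, with 1 value of each group blank. The groups did not overlap, which held for 1 of 93 members and 0.0348% of all probes in this set. Ndufc1 rose by 0.14 (SE 0.03, 95% interval 0.09 to 0.20, limma adjusted p = 0.0377), or 1.11-fold, and 9 of 9 LPS values lay above the saline mean. With each of the 20 arrays left out in turn, the change was 0.13 to 0.15 and the adjusted p 0.0352 to 0.093. It was under the threshold in 4 of these fits, those without LPS replicate 4 or 10 or saline replicate 7 or 9, so the call was lost without most single arrays. With all arrays, it was also lost with replicate number as a block (adjusted p = 0.064), with a robust variance prior (0.171) and without the dimmest probes (0.0614). The second Ndufc1 probe (ILMN_2983247) ran from 11.05 to 11.46 (median 11.23) on LPS arrays, against 10.94 to 11.27 (median 11.09) on saline arrays. Those groups overlapped, and its change of 0.15 (SE 0.05) had an adjusted p of 0.224.

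Other complex I subunits were DE and higher without passing the adjusted threshold. Ndufs4, an accessory subunit needed for a stable complex and mutated in a mouse model of Leigh syndrome, had a lowest, median and highest signal of 11.87, 11.99 and 12.07 on LPS arrays, against 11.60, 11.84 and 11.99 on saline arrays (probe ILMN_1234521). All 10 LPS values lay above the saline mean, the groups overlapped, and the change was 0.14 (SE 0.04, adjusted p = 0.198). The remaining 3 Ndufs4 probes gave 0.07, -0.01 and -0.04 and were not DE, so the probes of this gene did not move together. A Ndufa8 probe (0.11, SE 0.04), Ndufs3, a core subunit (0.07, SE 0.02), Ndufa1 (0.09, SE 0.04) and Ndufb8 (0.08, SE 0.04) were also DE, with adjusted p-values of 0.256 to 0.51. The other Ndufa8 probe was at 0.03.

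Outside complex I, Atp5pb, the peripheral stalk subunit b (0.13, SE 0.04), and Atp5j, subunit F6 (0.08, SE 0.03), were DE and higher, as were Uqcr11 (0.08), Cox6a1 (0.08) and the assembly factor Ndufaf7 (0.06). The other probes of Atp5j and Cox6a1 were at -0.03 and 0.02. Cox8a, a small subunit of complex IV, was the only member DE and lower. Its signal ran from 13.74 to 14.00 (median 13.91) on LPS arrays, against 13.86 to 14.14 (median 14.03) on saline arrays, a change of -0.13 (SE 0.04, adjusted p = 0.241). All 10 LPS values lay below the saline mean, and the groups overlapped. By complex, 32 of 39 complex I probes, 4 of 4 in complex II, 5 of 7 in complex III, 11 of 15 in complex IV and 11 of 16 in ATP synthase were higher.

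**Figure D3:**
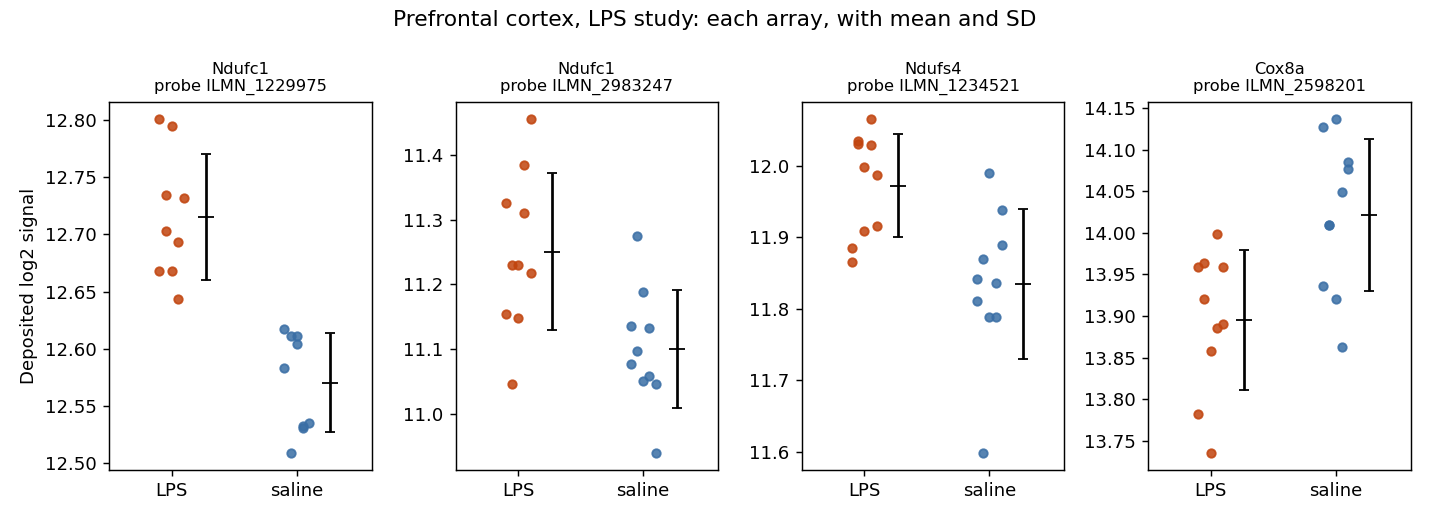
Deposited log2 signal (y axis) of both Ndufc1 probes, 1 Ndufs4 probe and Cox8a on each PFC array of the LPS study, LPS left and saline right, with the mean and SD; the y axes differ between panels and do not start at 0. The groups do not overlap only in the first panel, where LPS values start at 12.64 and saline values end at 12.62.

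Markers of other cells also differed in these PFC samples. All 5 measured meningeal markers were higher (4 DE, with Dcn and Mgp past the adjusted threshold, median 0.41), as were 3 of 3 red cell markers (all DE, median 0.42) and 4 of 4 striatal markers (2 DE, median 0.23). All 4 neuronal markers were lower, with a median of -0.04 and none DE, as were 4 of 4 interneuron markers (1 DE, median -0.05). Higher were 5 of 5 astrocyte markers (0 DE), 3 of 4 microglial (1 DE), 2 of 3 endothelial (1 DE) and 2 of 4 thalamic (2 DE). Of 4 oligodendrocyte markers 1 was higher and 0 were DE. The part of these markers in the members' values was not tested.

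In Chronic PFC, 82 of 96 members were lower in ethanol-drinking mice, with a median change of -0.15 (all probes, 0.003). Only 2 were DE and lower and 0 DE and higher, against backgrounds of 1.76% and 2.61% of 12125 probes, and 0 passed the adjusted threshold (0% of all probes). The DE count depended on the fit. It was 12, all lower, with replicate number as a block (12.5%, against 5.78% of all probes). With the first principal component as a covariate it was 18, all lower (18.8%, against 7.4%), and with a robust variance prior 5 (5.21%, against 4.54%). It was 4 without the dimmest probes (4.35%, against 3.78%) and 3 with median centring (3.12%, against 4.35%). Without probes holding blanks it was 2 (2.6%, against 3.8%). Array weights gave 2, of which 1 was higher and 1 lower (2.08%, against 4.98%). The 2 DE in the plain fit were Ndufa13, also known as GRIM-19 (-0.26, SE 0.12), and Ndufb2 (-0.25, SE 0.12). Ndufa13 had a lowest, median and highest signal of 13.50, 14.32 and 14.51 on treated arrays, against 14.12, 14.52 and 14.71 on control arrays. Ndufb2 ran from 9.00 to 9.91 (median 9.57) on treated arrays, against 9.39 to 10.17 (median 9.91) on control arrays, and the groups overlapped for both genes.

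Treated replicates 2 and 6 carried most of this difference. Their mean over the members was -0.61 and -0.59 from the control mean, whereas the other 8 treated arrays ran from -0.14 to 0.16 and the control arrays from -0.16 to 0.15. In 71 of 94 member probes with both values (75.5%), these 2 arrays were the lowest of all, which held for 9.87% of all probes. Without them, 59 of 96 members were lower, the median change was -0.02, and 1 member was DE (1.04%, against 3.42% of all probes), Ndufaf7 (0.10, SE 0.04), in the opposite direction (adjusted p = 1.00).

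**Figure D4:**
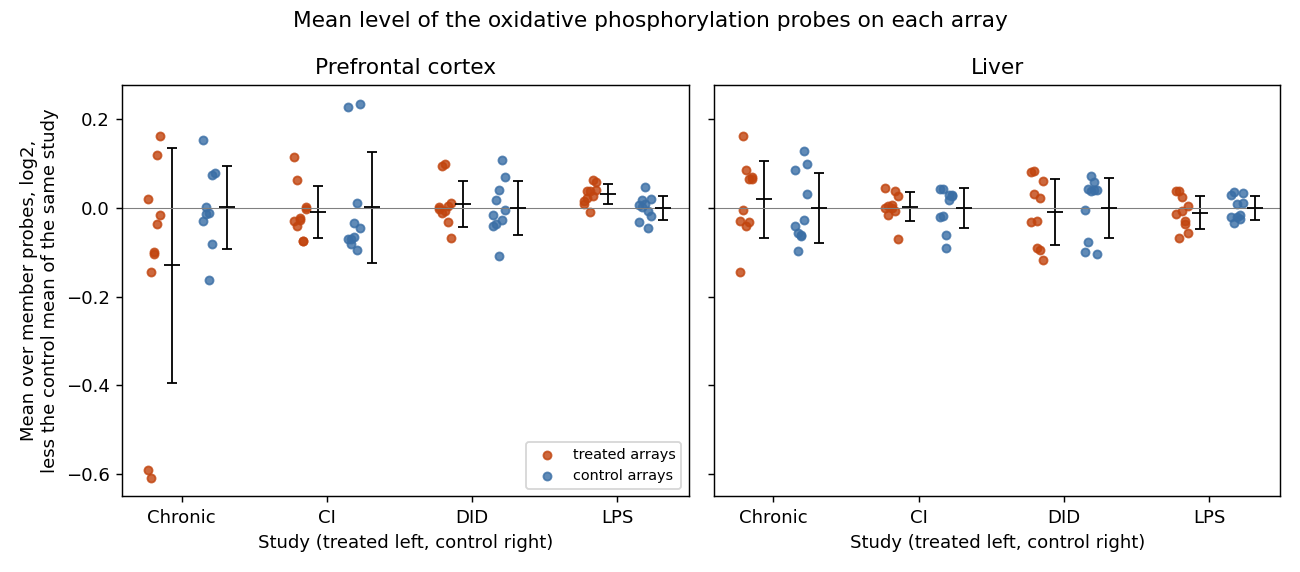
Mean over the member probes on each array (y axis, log2, less the control mean of the same study), treated left and control right, with the mean and SD, for PFC and liver. Treated replicates 2 and 6 of Chronic PFC lie at -0.61 and -0.59, and control replicates 5 and 6 of CI PFC lie at 0.24 and 0.23, above the other CI controls.

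On those 2 Chronic arrays the members were lower than on the other treated arrays by a median of 0.64 on the log2 scale, or to 0.64-fold, and 84 of 96 were lower. Medians by complex were -0.80 for complex IV, -0.77 for complex III, -0.71 for complex I, -0.67 for ATP synthase and -0.44 for complex II. The lowest were Ndufs5-ps (-1.29), Ndufa2 (-1.22), Ndufa7 (-1.13), Cox6b1 (-1.13) and Cox7c (-1.12), the last 4 of which are small accessory subunits. The 12 members that were not lower included Atp5a1 (0.42) and Atp5b (0.10), the alpha and beta subunits of ATP synthase, Ndufv1 (0.14), which binds NADH, Uqcrc2 (0.09), a core protein of complex III, and Ndufa9 (0.01). Uqcrc1, the other core protein, was at -0.09. The other members not lower were the assembly factors Sdhaf2, Ndufaf4, Ndufaf7 and a Ndufaf5 probe, with Sdhd, a Ndufb11 probe and Cox7a2l. Core subunits were also among the lower members, such as Ndufs7 (-0.74) and Ndufs3 (-0.41), as were Sdhb (-0.59 and -0.41) and Cox4i1 (-0.49).

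The same 2 arrays were low in ribosomal protein genes. Cytosolic ribosomal protein probes had a median difference of -0.58 (61 of 69 lower), mitochondrial ribosomal protein probes -0.33 (81 of 94) and proteasome subunit probes -0.10 (35 of 47), against 0.02 over all probes. The 16 citric acid cycle genes averaged 0.10 on both arrays, where the other treated arrays ran from -0.04 to 0.04 and the control arrays from -0.05 to 0.08. Neuronal markers (-0.11 and -0.004) lay within the range of the other arrays. A list of electron carriers, subunits and other genes outside the naming rule was at -0.38 and -0.27, where the lowest other array was at -0.18. Red cell markers were at -0.53 and -0.54, where the lowest other array was at -0.39. Meningeal markers were at -0.38, within the range of the other arrays, and -0.59, below their lowest value of -0.52. The part of these markers in the members' values was not tested.

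**Figure D5:**
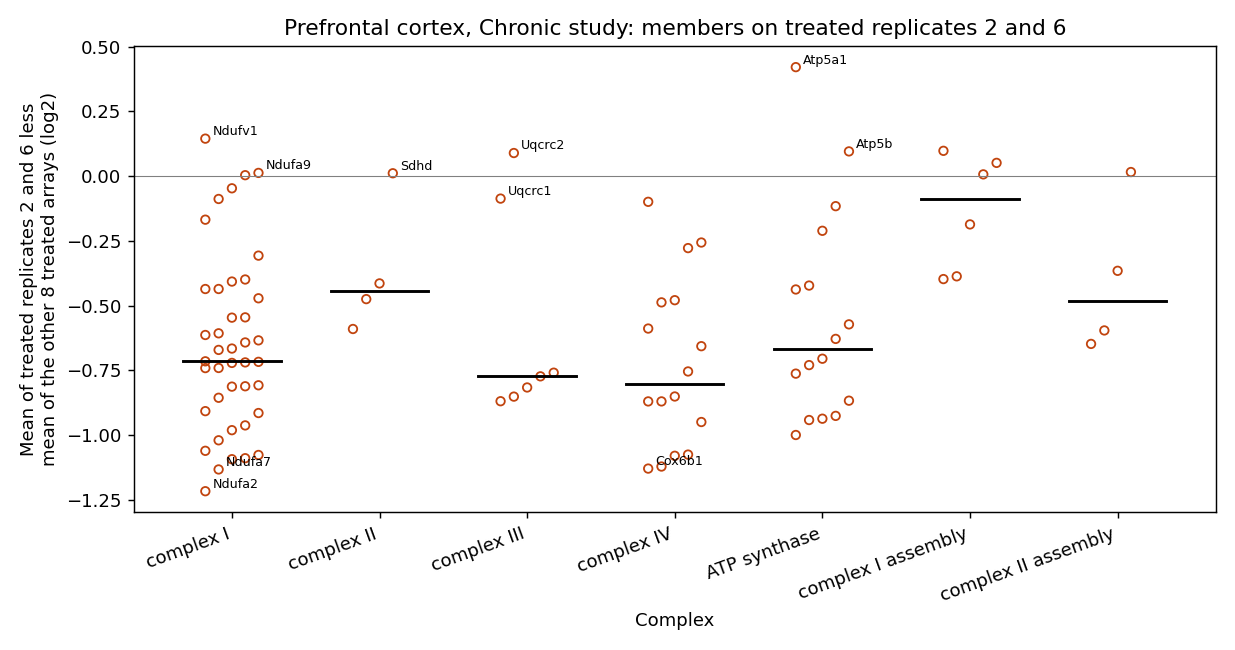
Mean of Chronic PFC treated replicates 2 and 6 less the mean of the other 8 treated arrays (y axis, log2) for each member probe by complex, with the median as a black line; the pseudogene and the supercomplex factor are not drawn. All 5 complex medians lie below 0, from -0.80 to -0.44, while Atp5a1 stands highest at 0.42.

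In CI PFC, 38 of 94 members were higher and the median change was -0.01. DE calls numbered 1 higher and 2 lower (backgrounds 2.84% and 2.37% of 11269 probes), and 0 passed the adjusted threshold (0% of all probes). Uqcr11, a small subunit of complex III, ran from 12.94 to 13.34 (median 13.13) on treated arrays, against 12.75 to 13.14 (median 12.97) on control arrays, a change of 0.14 (SE 0.06, adjusted p = 0.865) with 9 of 10 treated values above the control mean. The 2 lower were 1 of the Ndufv3 probes (-0.07) and the assembly factor Ndufaf1 (-0.12).

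Control replicates 5 and 6 of CI PFC were high in the members, at 0.24 and 0.23 from the control mean, whereas the other controls ran from -0.09 to 0.01 and treated arrays from -0.07 to 0.11. In 37 of 89 member probes with both values (41.6%), these 2 arrays were the highest of all, which held for 18.5% of all probes. Their median difference from the other controls was 0.26 for members, against -0.002 over all probes. For cytosolic ribosomal, mitochondrial ribosomal and proteasome subunit probes it was 0.14, 0.18 and 0.17. Citric acid cycle genes were at 0.15 and 0.19 from the control mean. Atp5pb (0.76), Ndufa12 (0.75) and Cox7a1 (0.67) differed most from the other controls, and Cox8a (-0.14) was the lowest. These 2 arrays also had oligodendrocyte markers at 1.17 and 1.17, thalamic markers at 1.21 and 1.36, meningeal markers at 1.37 and 1.06, and neuronal markers at -1.70 and -1.82, all outside the range of the other arrays of the set. Without them the direction turned: 82 of 94 members were higher, the median change was 0.05, and 5 were DE and higher (Atp5pb, Cox7c, Atp5g3, Ndufc2 and Ndufaf4, at 0.08 to 0.19), against 5.97% of all probes DE in either direction, with adjusted p-values of at least 0.782. All 4 striatal markers were DE and higher in CI PFC with all arrays (median 0.85), and the part of the markers in the members' values was not tested.

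In DID PFC, 55 of 94 members were higher, with a median change of 0.01. Ndufb8 alone was DE (1 higher and 0 lower, backgrounds 1.84% and 2.04% of 11473 probes), and 0 passed the adjusted threshold (0% of all probes). Ndufb8, whose protein is often used as an index of assembled complex I, ran from 13.18 to 13.42 (median 13.29) on treated arrays, against 13.12 to 13.30 (median 13.17) on control arrays, a change of 0.09 (SE 0.03, adjusted p = 0.999). It was DE and higher in the LPS study as well (0.08, SE 0.04, adjusted p = 0.51), as Uqcr11 was in CI and LPS. The studies had separate controls, and the share of all probes DE in 2 PFC sets is not given here.

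Over the 3 ethanol studies together, PFC members had a median change of -0.04, and 83 of 94 were lower. DE calls numbered 2, Ndufa13 (-0.10, SE 0.05) and Ndufb3 (-0.12, SE 0.06), both lower (background 5.09% of 10977 probes), and 0 passed the adjusted threshold (0% of all probes). Without the Chronic treated pair, 50 of 94 were lower and the median was -0.002. The LPS change less the mean ethanol change was above 0 for 86 of 93 members (median 0.07), but only Ndufc1 was DE (0.24, SE 0.11, adjusted p = 0.997; background 4.05% of 10767 probes), and 0 passed the adjusted threshold (0.0186% of all probes). Without the Chronic treated pair the median of that difference was 0.03, with 71 of 93 above 0. An F test for unequal changes over the 4 treatments called 7 of 93 members DE, including Uqcr11, Atp5j2 and Ndufc1, against 6.24% of all probes, and 0 after adjustment (0.0557% of all probes). Without the Chronic pair it called 1 (1.08%, against 5.32% of all probes), and without the CI pair 14 (15.1%, against 6.39%). With the block it called 18 (19.4%, against 8.26%), and with the covariate 28 (30.1%, against 15.7%).

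In liver after Chronic ethanol, 62 of 94 members were higher, with a median change of 0.02. DE calls numbered 3 higher and 1 lower, against backgrounds of 6.31% and 5.8% of 10068 probes, and 0 passed the adjusted threshold (1.5% of all probes). Uqcrc2, a core protein of complex III, ran from 13.05 to 13.32 (median 13.25) on treated arrays, against 12.92 to 13.35 (median 13.08) on control arrays, a change of 0.14 (SE 0.05, adjusted p = 0.235). Atp5d, the delta subunit of the ATP synthase head, ran from 12.79 to 12.91 (median 12.85) on 9 treated arrays, against 12.53 to 12.94 (median 12.74) on control arrays. Its change was 0.12 (SE 0.04, adjusted p = 0.243), with 9 of 9 treated values above the control mean, and the groups overlapped for both genes. Cox6a1 was 0.14 higher (SE 0.06). With the first principal component as a covariate 10 members were DE (10.6%, against 16.2% of all probes) and 3 passed the adjusted threshold, including Uqcrc2 (adjusted p = 0.0404), and with array weights 11 were DE (11.7%, against 15.8%). The share of all probes past the adjusted threshold with the covariate is not given here, so that count has no background. Ndufaf4, an assembly factor of complex I, had the largest difference, -0.25 (SE 0.11, adjusted p = 0.308), with 9 of 10 treated values below the control mean. In ATP synthase 15 of 16 probes and in complex III 6 of 7 were higher, with medians of 0.05 in each.

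In CI liver, 42 of 94 members were higher and the median change was -0.004, with 6 DE and higher and 2 DE and lower (backgrounds 5.23% and 5.24% of 9561 probes) and 0 past the adjusted threshold (0.23% of all probes). Ndufs7, a core subunit that holds the last iron-sulphur cluster before ubiquinone, ran from 11.82 to 12.21 (median 12.06) on treated arrays, against 11.61 to 12.08 (median 11.89) on control arrays. Its change of 0.19 (SE 0.05, adjusted p = 0.158) had 9 of 10 treated values above the control mean, with overlapping groups. Ndufa5 and Ndufa9 of complex I (0.11 and 0.08), Uqcrc1 (0.12), Atp5d (0.11) and Cox7a2l (0.12), which helps join complexes III and IV, were the other 5 higher. Ndufa4 was DE and lower at -0.10 (SE 0.04), with 10 of 10 treated values below the control mean, and so was 1 of the Ndufc1 probes (-0.09, SE 0.04).

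In DID liver, 37 of 92 members were higher, with a median of -0.01. DE members numbered 2 higher, Atp5mpl and Cox7c (0.10 each), and 3 lower, Ndufa7 (-0.09), Ndufb7 (-0.08) and Cox5a (-0.10). The backgrounds were 2.99% and 2.2% of 8924 probes, and 0 members passed the adjusted threshold (0.0224% of all probes). Ndufa7 ran from 11.52 to 11.76 (median 11.62) on treated arrays, against 11.67 to 11.81 (median 11.72) on 9 control arrays.

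After LPS the liver had 2 members DE and higher and 9 DE and lower (backgrounds 6.21% and 5.38% of 9550 probes), with 41 of 93 higher and a median of -0.01. None, 0 of 93, passed the adjusted threshold (0.555% of all probes). Ndufa7, an accessory subunit of the matrix arm, came nearest: it ran from 12.06 to 12.19 (median 12.12) on 9 LPS arrays, against 12.17 to 12.43 (median 12.23) on saline arrays. All 9 LPS values lay below the saline mean, the ranges overlapped only between 12.17 and 12.19, and the change was -0.14 (SE 0.03, adjusted p = 0.0675). The other 8 lower were Ndufb3, Ndufs8, Ndufa1 and 1 Ndufc1 probe of complex I, Cox7b and Cox5b of complex IV, and Atp5j2 and Atp5g1 of ATP synthase, at -0.15 to -0.08.

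Cox7a2l and Sdhb were the members DE and higher in LPS liver. Cox7a2l ran from 11.28 to 11.53 (median 11.38) on LPS arrays, against 11.09 to 11.49 (median 11.20) on saline arrays, with all 10 LPS values above the saline mean and a change of 0.14 (SE 0.05, adjusted p = 0.221). Sdhb, the iron-sulphur subunit of complex II, was 0.13 higher (SE 0.06) for 1 of its probes. By complex, 4 of 4 probes of complex II were higher (median 0.07) and 7 of 7 of complex III were lower (median -0.04), with 1 DE between them. In these samples 3 of 4 Kupffer cell markers were higher (1 DE, Marco, which rose by 0.35, while Vsig4 was at -0.02), as were 3 of 4 of sinusoidal endothelium (all 3 DE, of which Lyve1 rose by 0.53, while Clec4g was at -0.08). Both neutrophil markers were DE and higher (S100a8 rose by 1.02), 3 of 3 red cell markers were higher (2 DE, median 0.30), and 4 of 5 hepatocyte markers were higher with none DE. The part of these markers in the members' values was not tested.

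Both Ndufc1 probes, which were higher in PFC after LPS, were lower in liver after LPS, at -0.10 (SE 0.05, DE, adjusted p = 0.413) and -0.06. The difference between the tissues was not tested, because they were normalized apart. Several members were DE in 2 liver sets, each time in the same direction: Atp5d in Chronic and CI, Ndufa7 in DID and LPS, and Cox7a2l in CI and LPS. The share of all probes DE in 2 liver sets is not given here. The study itself reported more shared DE genes than expected for every pair of liver studies, most of them tending to change in the same direction.

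Over the 3 ethanol studies together, 2 of 91 liver members were DE, Uqcrc2 (0.08, SE 0.03, adjusted p = 0.162) and Atp5mpl (0.06, SE 0.03), both higher, against 12% of 8518 probes, and 0 passed the adjusted threshold (1.68% of all probes). The LPS change less the ethanol change called 2 of 91, Ndufa1 (-0.13, SE 0.05) and Uqcrc2 (-0.12, SE 0.06), against 8.81% of 8449 probes, and 0 after adjustment (0.272%). The F test over the 4 treatments called 3 of 91, Ndufaf4, Ndufa4 and Ndufs7, against 10.8% of all probes, and 0 after adjustment (0.698%). In each of these 3 fits the share of members called DE was below the share of all probes. With array weights the F test called 11 of 91 (12.1%, against 16.7%) and 1 after adjustment, and the ethanol mean 5 of 91 (5.49%, against 15.7%) and 1 after adjustment. The share of all probes past the adjusted threshold with array weights is not given here, so those adjusted counts have no background.

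Of the 13 symbols with more than 1 probe, all probes had the same sign in 69 of 96 comparisons of a gene in a set. At least 1 probe was DE in 11 of them, and in 1, Ndufc1 in LPS PFC, every probe was. Members varied together most where arrays stood apart: the median pairwise correlation between member probes over the arrays of a set was 0.67 in Chronic PFC (19 arrays) and 0.41 in CI PFC (20 arrays), against 0.04 to 0.21 in the other 6 sets. These are descriptions over arrays that share normalization and both arms.

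Genes that work beside the complexes were taken from fixed lists. In CI liver, Uqcc1, which helps assemble complex III, rose by 0.19 (SE 0.04, limma adjusted p = 0.0316), and Ppargc1b, a coactivator of mitochondrial biogenesis, rose by 0.20 (SE 0.04, adjusted p = 0.0416). Their lists had 3 of 21 assembly genes and 4 of 13 biogenesis regulators DE, all higher, against 5.23% of all probes DE and higher in this set, the regulators including Tfb2m (0.16), Esrra (0.16) and Sirt1 (0.07). Of 15 citric acid cycle and pyruvate dehydrogenase genes in CI liver, 14 were higher and 3 DE (Pdha1, Suclg1 and Idh2, at 0.12 to 0.19). In Chronic liver Pdha1, the catalytic subunit of pyruvate dehydrogenase that feeds the cycle, was 0.21 higher (SE 0.06, adjusted p = 0.0598), but the list was split, with 8 of 15 genes higher, 3 of them DE, and Dlst DE and lower at -0.15. Tfam, which packages and transcribes mitochondrial DNA, was 0.16 higher (SE 0.06). After LPS Esrra was 0.20 higher in liver (SE 0.06, adjusted p = 0.117), with 1 of 14 biogenesis regulators DE, and Cs and Pdha1 were 0.12 and 0.11 lower. Backgrounds of all probes DE and higher and DE and lower were 6.31% and 5.8% in Chronic liver. In LPS liver they were 6.21% and 5.38%.

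In PFC no gene of these lists passed the adjusted threshold in any study. After LPS, Slc25a3, the mitochondrial phosphate carrier, was 0.20 higher (SE 0.06, adjusted p = 0.199), and Ogdh of the citric acid cycle was DE and lower at -0.15. Of 21 assembly genes, Cox19 was DE and higher (0.07) and Coa5 and Cox15 DE and lower (-0.14 and -0.09), and of 13 biogenesis regulators Gabpb1 was DE and lower (-0.08). Of all 11508 probes of this set, 4.61% were DE and higher and 4.97% DE and lower. Slc25a3 was DE and higher in Chronic PFC also (0.15, SE 0.06). A further list held electron carriers, subunits and other genes outside the naming rule, such as Cyc1, Cycs and Cox17. None of its 5 measured genes was DE in any PFC set. In liver, Cyc1 was DE in CI (0.09) and Cox17 in LPS (0.13).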

How the data were processed

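The authors hybridized RNA of 1 mouse per array to Illumina MouseRef-8 v2 beadchips, kept probes detected on most arrays of a set, and applied variance stabilization and quantile normalization (lumi), then removed outlying values by Grubbs' test. The deposited log2 values, per study and tissue, were used as given: 13983 probes on 159 arrays. A further 159 columns of bead signals, whose names are running numbers, could not be tied to samples and were not used. Probe genes came from the platform annotation (13181 probes with 1 symbol, 802 with none).

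Each set was fitted with limma 3.58.1 (R 4.3.3) on all its probes, treated less control, with Benjamini-Hochberg adjustment; the sets of a tissue were fitted jointly for the ethanol mean, the LPS difference and the F test. The number of arrays limits the precision. Members and lists were chosen with earlier results of these data known. Genes were named from the 3 smallest p-values in each direction of a set, the 5 smallest of each joint fit, adjusted calls, DE in 2 sets, or as tissue isoforms; others named were chosen after their values were seen. Scripts were tested on simulated data. Alternatives covered blocking, blanks, weights, centring, a covariate, the variance prior, low probes, 1 probe per gene and left-out arrays.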

Additional observations from a re-analysis of the deposited data

Results flagged for a closer look

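In CI liver, 1 ethanol array stood below the other 9 in the mean over members. It lay at -0.0703 from the control mean, the nearest array at -0.0154, and its gap was 0.477 of the range of the group, past the critical value of Dixon's test for 10 samples. It was 1 of 20 groups of values examined this way, and chance alone marks about 1 group in 20.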

How the results depend on the processing

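Same-numbered treated and control arrays deviated together in part: r was over 0.1 in 9 of 10 pairs in CI PFC (0.0496 to 0.468), 6 of 9 in Chronic PFC and at most 4 of 10 elsewhere. No set had every pair over 0.1 and no label ties the numbers to a shared animal or batch, so the pairing was not taken as part of the design. Percentages in parentheses are the share of all probes DE in the same fit. The share of all probes past adjustment in these fits is not given here, so adjusted counts have no background. With the replicate block, DE members numbered 3 in CI PFC, as without it (6.93%), 12 in Chronic PFC (5.78%), 2 in DID PFC (3.71%), 4 for pooled ethanol PFC (6.43%), 4 for LPS less ethanol PFC (4.82%), 18 for the PFC F test (8.26%), 5 in CI liver (9.16%), 3 in DID liver (4.68%), 1 for LPS less ethanol liver (7.94%) and 1 for the liver F test (8.78%), and 0 passed adjustment in LPS PFC. Without probes holding blanks, counts were 7 in LPS PFC (8.53%; 0 adjusted, Ndufc1 probe ILMN_1229975 not tested), 0 for LPS less ethanol PFC (3.44%), 4 for the PFC F test (5.11%), 2 in DID liver (4.4%) and 1 for the liver F test (8.67%). Array weights gave 2 in DID PFC (5.04%), 1 for pooled ethanol PFC (5.11%; median -0.0116), 5 for LPS less ethanol PFC (7.29%; median 0.047), 11 in Chronic liver (15.8%), 8 in DID liver (7.24%), 5 for pooled ethanol liver (15.7%; 1 adjusted) and 11 for the liver F test (16.7%; 1 adjusted). The first component as a covariate gave 18 in Chronic PFC (7.4%), 8 in CI PFC (15.9%), 3 in DID PFC (5.57%), 9 for pooled ethanol PFC (11.9%), 7 for LPS less ethanol PFC (8.59%), 28 for the PFC F test (15.7%), 10 in Chronic liver (16.2%; 3 adjusted), 12 in DID liver (8.93%), 8 for pooled ethanol liver (17.3%; 2 adjusted), 5 for LPS less ethanol liver (12.9%) and 11 for the liver F test (16.8%; 2 adjusted). A variance trend with a robust prior gave 5 in Chronic PFC (4.54%), 7 in LPS PFC (9.2%; 0 adjusted), 0 in DID liver (4.96%), 7 in LPS liver (11.2%) and 1 for LPS less ethanol liver (8.55%). Leaving out the dimmest probes gave 4 in Chronic PFC (3.78%) and 0 adjusted in LPS PFC.

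These alternatives were chosen after seeing the data: without Chronic treated replicates 2 and 6, DE members numbered 1 in Chronic PFC (3.42%; median -0.0203), 1 for pooled ethanol PFC (4.33%; median -0.0021), 2 for LPS less ethanol PFC (3.79%; median 0.034) and 1 for the PFC F test (5.32%). Without CI control replicates 5 and 6, they numbered 5 in CI PFC (5.97%; median 0.0516), 0 for pooled ethanol PFC (4.36%), 0 for LPS less ethanol PFC (3.71%) and 14 for the PFC F test (6.39%). Single arrays left out of LPS PFC, also chosen then, gave Ndufc1 adjusted p-values of 0.0352 to 0.093. Of the 48 changes named for the smallest p-values in each direction of a set, 0 reversed their direction under the alternatives run. Other named changes were not part of this check. The cause of these shifts was not tested. Median centring and 1 probe per gene moved no count past 1.5 times. Precision was limited by the 9 or 10 arrays per group, and dim probes had been filtered out before deposit.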
